A study of Homo sapiens with 4 samples.

Results

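The genes described here are 10 transcripts that NF-kB is known to drive, namely the cytokines IL6, LIF, IL1A and IL1B, the chemokines CXCL8, CXCL1, CXCL2 and CXCL3, and the feedback inhibitors TNFAIP3 and NFKBIA. They were chosen by name, with earlier results of these data known, and all 10 were found among the 32955 genes of the table. RNA-seq was performed on 4 libraries of MDA-MB-231, an estrogen receptor-negative line established from human breast cancer. The cells were grown in DMEM with fetal bovine serum, and all of them were transfected with an oligonucleotide, so no untransfected library was compared. In 2 libraries this was mimic NC, a negative control, and in 2 libraries it was miR-217 mimic, a synthetic RNA that stands in for miR-217. The comparison asks whether the level of these transcripts differs between the 2 kinds of cells. No inflammatory stimulus is named in the labels, and the dose and time of transfection were not given in the sources used here.

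Each group holds replicates numbered 1 and 2. Nothing in the labels tells what the number marks or whether the replicates were separate cultures, and so p-values measure only the spread between these libraries, which may be technical. The reads counted on genes ranged from 32635814 in miR-217 mimic replicate 2 to 57933183 in mimic NC replicate 1. The first principal component held 71.3% of the variance of the tested genes and set replicate 1 of either group apart from replicate 2. All results are therefore given within each number as well, and the difference between the numbers is described for its own sake after that between mimic and control. Of the 4 transcripts set as high in this line, VIM lay at 27.9 to 36.9 RPKM and MSN at 93.5 to 157 RPKM. CD44 lay at 13.5 to 26.0 RPKM and AXL at 6.23 to 8.71 RPKM. Of the 7 set as low or absent, ESR1 lay at 0.0294 to 0.0756 RPKM, while 3 averaged at least 1 RPKM. These were EPCAM at 3.90 to 7.41 RPKM, ERBB2 at 2.27 to 3.23 RPKM and FOXA1 at 1.30 to 1.70 RPKM. Cell identity was not tested. RPKM divides the reads on a gene by the length of its exons and by all reads counted on genes.

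NF-kB is a family of transcription factor dimers that IkB proteins hold in the cytoplasm. Signals from interleukin 1, TNF or Toll-like receptors activate the IKK kinase complex, which marks the IkB proteins for degradation, and the freed dimers enter the nucleus and switch on cytokine and chemokine genes. Among the targets are also NFKBIA, which encodes the inhibitor IkB alpha, and TNFAIP3, which encodes the ubiquitin-editing enzyme A20, and both dampen the signal. MDA-MB-231 is known as a breast cancer line that secretes IL-6 and IL-8, the product of CXCL8.

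The promoters of these genes were read first, because the binding site for NF-kB is what such target genes are known to share. Promoter sequences (250 bases before to 50 bases after the transcription start, RefSeq, GRCh38.p14) were found for 9 of the 10 genes, all but LIF. The 10-base NF-kB consensus was searched on both strands. It reads 3 G, a purine, any base, A or T, 2 pyrimidines and 2 C. It was present in 6 of the 9, compared with 5.91% of the 35116 promoters in the table. The 10 bases of the match are in capitals, shown on the strand of the gene, and for TNFAIP3 and NFKBIA the capitals read as the consensus on the opposite strand.
IL6 promoter (chr7:22727117-22727146, plus strand): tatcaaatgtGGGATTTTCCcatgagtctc
CXCL1 promoter (chr4:73869304-73869333, plus strand): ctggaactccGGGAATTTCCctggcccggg
CXCL2 promoter (chr4:74099254-74099283, minus strand): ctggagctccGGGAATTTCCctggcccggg
CXCL3 promoter (chr4:74038749-74038778, minus strand): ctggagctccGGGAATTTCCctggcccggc
TNFAIP3 promoter (chr6:137867182-137867211, plus strand): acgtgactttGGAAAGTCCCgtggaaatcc
NFKBIA promoter (chr14:35404811-35404840, minus strand): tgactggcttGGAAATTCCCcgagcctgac
The matches of CXCL1, CXCL2 and CXCL3 have the same 10 bases and begin 78 or 79 bases before the start, and each of these 3 promoters matched the consensus on the opposite strand as well, at a position shifted by 1 base. TNFAIP3 held a further match, 55 bases before the start, that overlaps the region shown. The windows of CXCL8, IL1A (2 promoters) and IL1B held no match to these letters. The AP-1 motif TGANTCA, searched on both strands, was present in the promoters of CXCL8 and IL1A and in 7.71% of all promoters. A match describes the letters alone, and binding was not measured.

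A mimic can act on a transcript through the 3'UTR, and cytokine transcripts are known for AU-rich elements there that mark them for decay, so both were searched in the longest 3'UTR of each gene in GENCODE 29 (GRCh38). The capitals of miR-217 mark its seed, bases 2 to 8 (RefSeq), and those of the 2 target windows mark the 7 bases that match it. The labels do not name the arm of the mimic, and the 5p arm is shown.
hsa-miR-217-5p: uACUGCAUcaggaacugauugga
IL6 3'UTR (chr7:22731822-22731848, plus strand): gaaagtggctATGCAGTttgaatatcc
CXCL2 3'UTR (chr4:74097113-74097139, minus strand): aatgttaattATGCAGTgtttccctct
The seed match ATGCAGT was thus present in 2 of the 10 genes, IL6 and CXCL2, compared with 14.5% of the 9911 tested genes that have a 3'UTR, and in both it lacked the A that makes the 8-base site. The pentamer ATTTA, the core of AU-rich elements, was present in all 10 genes, and in 72.5% of the tested genes, from 3 copies in NFKBIA to 10 in CXCL2, against a median of 2 copies in the tested genes. The longer AU-rich nonamer TTATTTATT, which contains it, was present in 7 of the 10 genes, compared with 8.96% of the tested genes. It is shown in capitals for 4 of them, a pair of chemokines with the same 10 bases before it and 2 cytokines.
CXCL2 3'UTR (chr4:74097246-74097274, minus strand): atgtcagttgTTATTTATTgaaatgattt
CXCL3 3'UTR (chr4:74036773-74036801, minus strand): atgtcagttgTTATTTATTcaaattatct
IL1B 3'UTR (chr2:112829995-112830023, minus strand): gcttccctatTTATTTATTtatttgtttg
LIF 3'UTR (chr22:30240958-30240986, minus strand): ctccgggcccTTATTTATTatttaaacat
The nonamer had 5 copies in CXCL2, 3 in CXCL1, 2 each in IL1B and LIF, and 1 each in CXCL8, CXCL3 and TNFAIP3, with overlapping copies counted. The 3'UTRs of IL6, IL1A and NFKBIA did not hold it.

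The table places the genes on hg38, with IL6 on chromosome 7 (22725884 to 22732002), LIF on chromosome 22 (30240447 to 30246851) and TNFAIP3 on chromosome 6 (137867188 to 137883312). IL1A (112773915 to 112784590) and IL1B (112829751 to 112836903) lie near each other on chromosome 2, and NFKBIA lies on chromosome 14 (35401511 to 35404749). The chemokine genes lie within a cluster on chromosome 4, from CXCL8 (73740506 to 73743716) and CXCL1 (73869393 to 73871242) to CXCL3 (74036589 to 74038807) and CXCL2 (74097035 to 74099293). In levels per length, the feedback inhibitors stood above the cytokines and chemokines. NFKBIA had a mean of 25.4 RPKM over the 4 libraries, TNFAIP3 of 7.47 RPKM and LIF of 4.63 RPKM, and the ranges of these neighbours in the order did not overlap. Next came CXCL2 with a mean of 1.51 RPKM and IL6 with 1.11 RPKM, which overlapped, and then CXCL8 with 0.798 RPKM, which overlapped with IL6. CXCL8 lay above CXCL1 without overlap. CXCL1 (0.362 RPKM), IL1B (0.234 RPKM), CXCL3 (0.231 RPKM) and IL1A (0.147 RPKM) closed the order, and each of them overlapped with the next. Among all listed genes, the mean of NFKBIA lay at percentile 94.1, that of IL6 at 59.2 and that of IL1A at 38.2. Of the 10 genes, 5 reached the mean of 1 RPKM that was set for the test, and the other 5 are described by their reads.

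**Figure D1:**
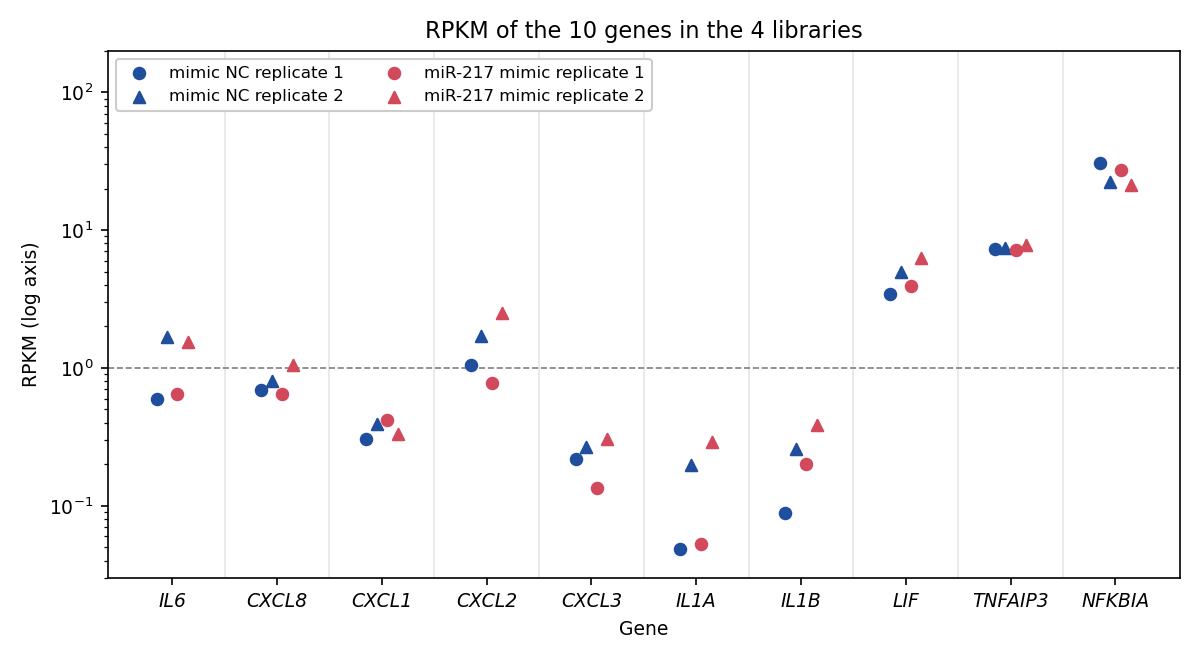
Each point is the RPKM (log axis) of a gene in a library, blue for mimic NC and red for miR-217 mimic, with circles for replicate 1 and triangles for replicate 2, and the dashed line is at 1 RPKM. The triangles lie above the circles in both groups for 8 of the 10 genes, while blue and red points overlap for all 10.

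The 10 transcripts driven by NF-kB did not separate the miR-217 mimic from mimic NC. In 0 of the 10 genes did both mimic libraries lie beyond both control libraries, compared with 24.1% of the 19512 genes with a mean of at least 10 reads. Tested with limma on log2(RPKM + 1), 0 of the 5 tested genes had an unadjusted p under 0.05, let alone the log2 difference of at least 0.32 that was asked for beside it, a pair of lines that 1.15% of the 13871 tested genes passed. At a Benjamini-Hochberg adjusted p under 0.05 the limma count was 0 of the 5 and 0% of all tested genes, while 165 genes had an unadjusted p under 0.05. limma voom on the recovered reads, which could test all 10, also called 0 of them, with 0 of them and 129 of all genes at an unadjusted p under 0.05. With only 2 libraries in each group, the smallest two-sided p of an exact permutation test is 0.333.

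Among the cytokines, IL6, which encodes the ligand that signals through gp130, was at 0.592 and 1.66 RPKM in mimic NC replicates 1 and 2, and at 0.652 and 1.54 RPKM in the miR-217 mimic replicates. The high libraries were replicate 2 of either group, and the groups overlapped. Its mean was 1.13 ± 0.757 RPKM (SD, n = 2) with mimic NC and 1.10 ± 0.628 RPKM (SD, n = 2) with miR-217 mimic. The difference on the log2(RPKM + 1) scale was -0.0074 (standard error 0.33, limma adjusted p = 1.00), in a gene whose 3'UTR holds the seed match shown above. Within number 1 the ratio of mimic to control was 1.10 (95% interval 0.782 to 1.55), and within number 2 it was 0.926 (0.717 to 1.19). These intervals are exact binomial ones on the reads and cover counting error only. Of the bases counted for IL6, 20.7% lie opposite an exon of AC073072.5. The library kit keeps the strand, but whether the counting used it was not given in the sources used here, and so reads of the 2 genes may be mixed. For LIF and TNFAIP3, 4.41% and 1.88% of the bases or fewer are shared in this way with any single gene.

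LIF, another ligand of the IL-6 family, was at 3.42 and 4.94 RPKM with mimic NC and at 3.93 and 6.24 RPKM with miR-217 mimic. The mimic library was the higher of the pair at each number, but the spread between the numbers was larger and the groups overlapped. Its log2 difference was 0.22 (standard error 0.25, adjusted p = 1.00 from limma). Within number 1 the ratio was 1.15 (1.04 to 1.27), and within number 2 it was 1.26 (1.15 to 1.39).

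The interleukin 1 genes encode ligands of the receptor that feeds back into NF-kB, and they gave few reads. IL1A had 6 reads in replicate 1 and 20 in replicate 2 of either group. In RPKM this was 0.0488 and 0.199 in the control replicates, against 0.0529 and 0.289 with miR-217 mimic, so the groups overlapped. IL1B had 16 and 38 reads in the control replicates, compared with 33 and 39 reads in those of the mimic, or 0.0892 and 0.259 RPKM against 0.200 and 0.386 RPKM. The mimic library was the higher one at each number, at a ratio of 2.24 (1.20 to 4.36) in number 1 and of 1.49 (0.928 to 2.39) in number 2. By limma voom, where the log2 difference is in CPM (reads scaled to the library total), IL1B had the largest difference of the 10 genes, at 0.83 (standard error 0.63, adjusted p = 1.00).

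The chemokines draw neutrophils through the receptors CXCR1 and CXCR2. CXCL2 was at 1.06 and 1.72 RPKM with mimic NC and at 0.775 and 2.49 RPKM with miR-217 mimic, so that the mimic libraries held both the lowest and the highest value. Its log2 difference was 0.074 (standard error 0.36, adjusted p = 1.00 from limma), and it turned to -0.065 (standard error 0.57) on the CPM scale of limma voom. The ratio of mimic to control was 0.732 (0.521 to 1.02) within number 1 and 1.45 (1.12 to 1.88) within number 2. These 2 ratios lie on opposite sides of 1, and their difference could not be tested with 1 library behind each value. CXCL2 is the other gene with a seed match.

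CXCL8, which encodes interleukin 8, was at 0.691 and 0.798 RPKM with mimic NC and at 0.651 and 1.05 RPKM with miR-217 mimic, on 78 to 91 reads. CXCL1 was at 0.306 and 0.391 RPKM with mimic NC and at 0.419 and 0.331 RPKM with the mimic, on 14 to 29 reads. CXCL3 was at 0.218 and 0.266 RPKM against 0.135 and 0.304 RPKM, on 16 to 28 reads. In each of the 3 genes the groups overlapped, and the ratio of mimic to control lay above 1 at 1 number and below 1 at the other, with intervals that included 1 at both. By limma voom their log2 differences ranged from -0.32 for CXCL3 to 0.15 for CXCL1, with adjusted p = 1.00 for each. CXCL1, CXCL2 and CXCL3 are close copies, and how reads that fit several of them were counted was not given in the sources used here.

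The feedback inhibitors carried the most reads and the narrowest intervals. TNFAIP3 was at 7.34 and 7.47 RPKM with mimic NC and at 7.22 and 7.84 RPKM with miR-217 mimic, on 1293 to 2147 reads, and the control values lay between those of the mimic. Its log2 difference was 0.021 (standard error 0.12, adjusted p = 1.00 from limma), with ratios of 0.984 (0.925 to 1.05) and 1.05 (0.977 to 1.13) within numbers 1 and 2. NFKBIA was at 30.8 and 22.4 RPKM with mimic NC and at 27.1 and 21.2 RPKM with miR-217 mimic. The mimic library was the lower one at each number, and the groups overlapped. Its log2 difference was -0.13 (standard error 0.21, adjusted p = 1.00 from limma), with ratios of 0.882 (0.843 to 0.923) and 0.945 (0.888 to 1.01).

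**Figure D2:**
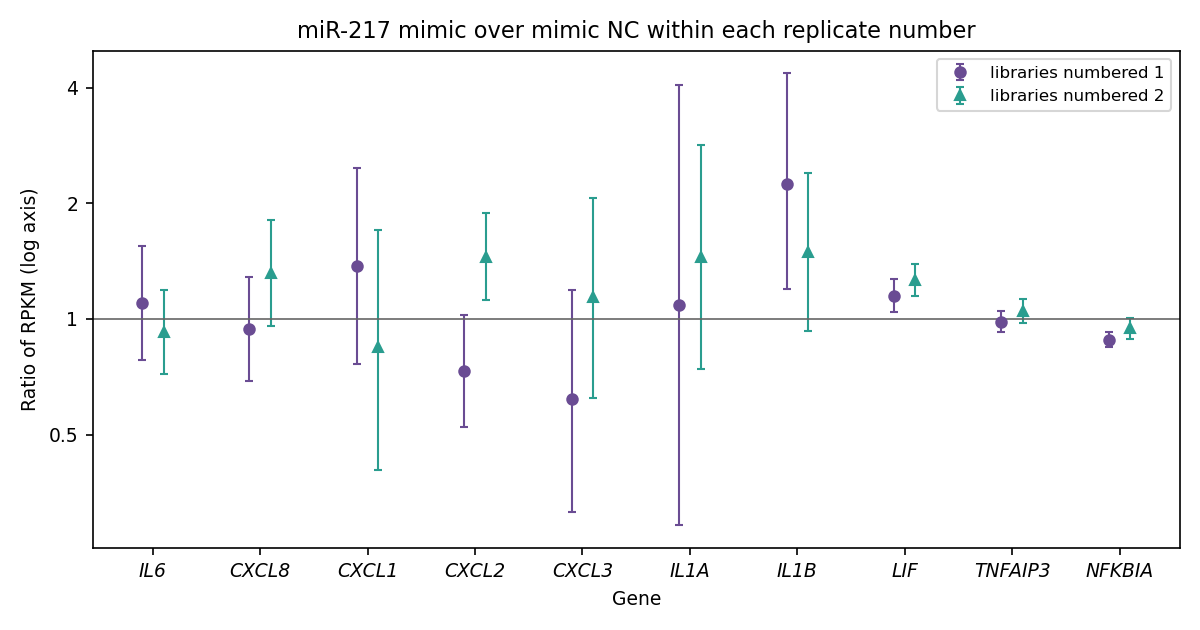
The ratio of RPKM in miR-217 mimic to that in mimic NC (log axis) is drawn for each gene within the libraries numbered 1 (circles) and 2 (triangles), with exact 95% intervals that cover counting error only. The mimic lay above control at both numbers for 3 genes (IL1A, IL1B and LIF) and below at both for 1 gene (NFKBIA), while 6 genes lay on opposite sides of 1.

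Most of the same transcripts had higher values in the libraries numbered 2. In 8 of the 10 genes both libraries numbered 2 lay above both libraries numbered 1, compared with 24.0% of the 19512 genes with a mean of at least 10 reads. The genes were chosen with earlier results of these data known, so this contrast is a description only. NFKBIA alone of the 10 lay lower in both libraries numbered 2, a pattern seen in 34.9% of these genes, and CXCL1 overlapped. Tested with limma on log2(RPKM + 1) with the group as a term, 2 of the 5 tested genes (IL6 and LIF) were higher in number 2 at an adjusted p under 0.05 and 1 (NFKBIA) was lower, compared with 3.69% and 4.69% of all tested genes. IL6 reached the test through number 2 alone, and CXCL2 had a mean of 0.917 RPKM in number 1. These 2 genes thus passed the filter because they were higher in number 2. Their limma p-values and the count of 2 of the 5 are therefore a description only. By limma voom 4 of the 10 (IL6, CXCL2, LIF and IL1A) were higher and 1 (NFKBIA) was lower, compared with 7.97% and 11.1% of the 19512 genes tested that way. IL1A, with 6 reads in each library numbered 1, likewise passed the minimum of 10 reads through number 2.

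IL6 was at 0.622 ± 0.0423 RPKM (SD, n = 2) in number 1 and at 1.60 ± 0.0868 RPKM (SD, n = 2) in number 2, with little spread between mimic and control. The ratio of number 2 to number 1 was 2.81 (2.11 to 3.76) in mimic NC and 2.36 (1.73 to 3.24) in miR-217 mimic. Its log2 difference was 0.68 on the log2(RPKM + 1) scale (standard error 0.097, adjusted p = 0.0379 from limma) and 1.37 on the CPM scale (standard error 0.24, adjusted p = 0.00285 from limma voom). The pseudocount lowers the first of these for a gene of this level. IL6 entered the limma test through number 2 alone, so its adjusted p from limma is a description only. For LIF the ratio was 1.44 (1.31 to 1.59) in mimic NC and 1.59 (1.44 to 1.75) in miR-217 mimic. Its difference was 0.49 (standard error 0.081, adjusted p = 0.0455 from limma), and 0.60 by limma voom (adjusted p = 0.00273).

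IL1A had the widest ratios of the 10 genes. It was at 0.0509 ± 0.00296 RPKM (SD, n = 2) in number 1 and at 0.244 ± 0.0635 RPKM (SD, n = 2) in number 2. Its ratio was 4.08 (1.58 to 12.4) in mimic NC and 5.45 (2.11 to 16.6) in miR-217 mimic, and its log2 difference by limma voom was 2.16 (standard error 0.61, adjusted p = 0.0306). It entered this fit through number 2 alone, with 20 reads in each library there against 6 in number 1, so this p-value is a description only. IL1B had ratios of 2.90 (1.58 to 5.58) and 1.93 (1.18 to 3.17), and its difference of 1.18 did not pass the threshold (standard error 0.41, adjusted p = 0.0668 from limma voom).

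CXCL2 was higher in number 2 at a ratio of 1.62 (1.23 to 2.15) in mimic NC and of 3.22 (2.35 to 4.44) in miR-217 mimic. The size of this difference thus varied between the groups, and the variation could not be tested. Its log2 difference was 0.69 (standard error 0.17, adjusted p = 0.0740 from limma) and 1.15 by limma voom (standard error 0.28, adjusted p = 0.0151), so the call depended on the scale. The other chemokines did not pass the threshold by limma voom, at 0.44 for CXCL8 (adjusted p = 0.277), 0.66 for CXCL3 (adjusted p = 0.361) and 0.040 for CXCL1 (adjusted p = 0.964). For CXCL1 the ratio of number 2 to number 1 was 1.28 (0.690 to 2.37) in mimic NC and 0.789 (0.385 to 1.54) in miR-217 mimic, so on these 14 to 29 reads a difference smaller than these bounds was not detectable.

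The 2 inhibitors did not move together. NFKBIA was at 29.0 ± 2.57 RPKM (SD, n = 2) in number 1 and at 21.8 ± 0.870 RPKM (SD, n = 2) in number 2. The ratio of number 2 to number 1 was 0.727 (0.692 to 0.764) in mimic NC and 0.779 (0.734 to 0.827) in miR-217 mimic, and the log2 difference was -0.39 (standard error 0.069, adjusted p = 0.0487 from limma), or -0.41 by limma voom (adjusted p = 0.00567). TNFAIP3 had ratios of 1.02 (0.955 to 1.08) and 1.09 (1.01 to 1.17), and its difference of 0.064 did not pass the threshold (standard error 0.073, adjusted p = 0.576 from limma). The call of NFKBIA on the RPKM scale was lost with a pseudocount of 0.1 (adjusted p = 0.0507 from limma). Each library was also left out in turn, in fits without the group term. The log2 difference then ran from 0.65 to 0.72 for IL6, from 0.51 to 0.87 for CXCL2 and from 0.35 to 0.63 for LIF. For TNFAIP3 it ran from 0.033 to 0.096 and for NFKBIA from -0.48 to -0.31. Such a fit leaves 1 library of a number, so whether the calls hold without single libraries could not be tested.

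**Figure D3:**
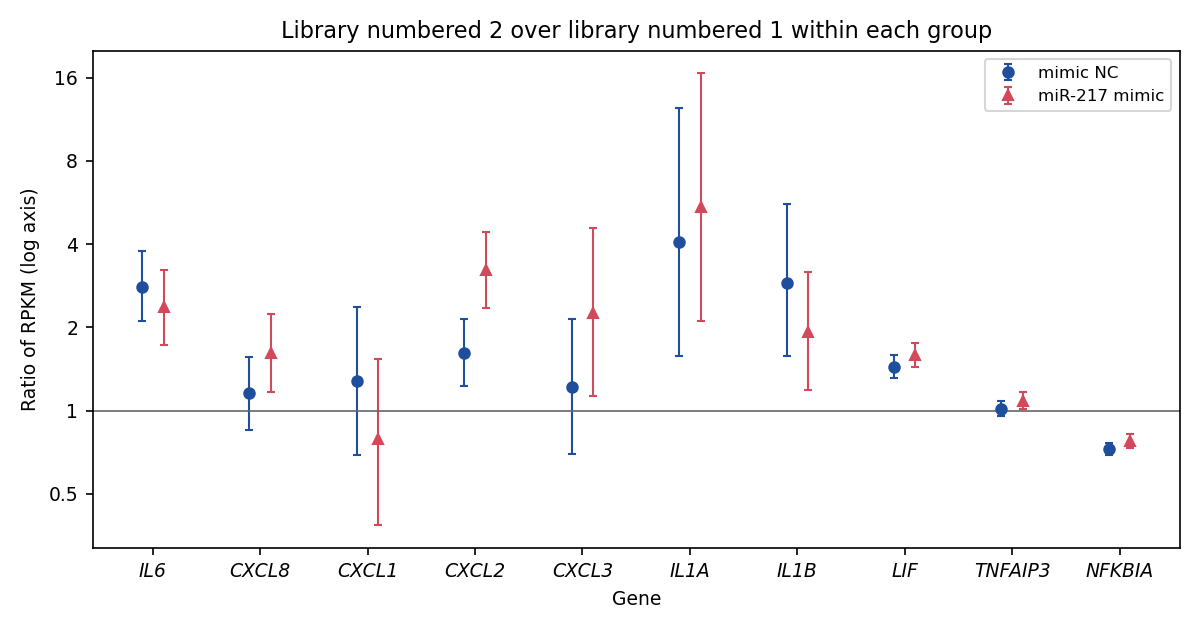
The ratio of RPKM in the library numbered 2 to that in the library numbered 1 (log axis) is drawn for each gene within mimic NC (blue circles) and miR-217 mimic (red triangles), with exact 95% intervals that cover counting error only. The intervals of IL6, CXCL2, IL1A, IL1B and LIF lie above 1 in both groups and those of NFKBIA below 1 in both.

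Markers of other cell types were read beside these values, since leukocytes and fibroblasts also make these cytokines and since, in bulk RNA, fewer cells of a type and less RNA per cell cannot be told apart. All 8 leukocyte markers had reads in every library, at a summed 15.4 and 12.8 RPKM in mimic NC and 17.4 and 19.0 RPKM in miR-217 mimic. Most of the sum was CD68, at 10.4 to 13.6 RPKM. PTPRC, the pan-leukocyte antigen CD45, was at 0.351, 0.414, 0.504 and 1.25 RPKM and was thus highest in miR-217 mimic replicate 2, where CXCL8, CXCL2, CXCL3, IL1A, IL1B, LIF and TNFAIP3 were highest too. The 6 fibroblast markers summed to 14.1 and 12.5 RPKM in the libraries numbered 1 and to 5.64 and 6.07 RPKM in those numbered 2, with COL1A2 at 0 in 3 libraries. Most of that sum was LUM, at 10.4 and 9.13 RPKM in number 1 and at 4.43 and 4.85 RPKM in number 2. The endothelial marker CDH5 was likewise at 3.49 and 3.06 RPKM in number 1 and at 1.29 and 1.02 RPKM in number 2. The other endothelial markers, PECAM1 and VWF, overlapped between the numbers. PECAM1 was at 0.0734 and 0.0507 RPKM in number 1 and at 0.0544 and 0.138 RPKM in number 2. VWF stayed at or below 0.0399 RPKM. The fibroblast sum, LUM and CDH5 were thus lower in number 2, as were NFKBIA, NFKBIZ and ZFP36, while IL6 and LIF were higher there. The part of other cells in the results was not tested.

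The rest of the pathway was followed in 10 lists of 175 genes, of which 168 were in the table, 109 were tested on the RPKM scale and 139 by limma voom. With miR-217 mimic, 0 of the 109 passed both lines and 0 had an unadjusted limma p under 0.05, and by limma voom 0 of the 139 did. Between the numbers, limma called 5 of the 109 higher in number 2 (4.59%) and 3 lower (2.75%), shares near those of all tested genes. By limma voom 28 of the 139 were higher (20.1%) and 8 were lower (5.76%), compared with 7.97% and 11.1% of all genes. The lists were chosen with earlier results of these data known, so these shares are a description only.

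Of the 5 NF-kB and REL subunits, RELA and NFKB2 had the highest levels, at 23.3 to 27.8 and 14.5 to 23.2 RPKM. NFKB2, the precursor of p52 in the noncanonical pathway, was at 16.7 and 23.2 RPKM with mimic NC and at 14.5 and 22.8 RPKM with the mimic. Both libraries numbered 2 were above both numbered 1, with a difference of 0.53 (standard error 0.077, adjusted p = 0.0385 from limma). RELB, its partner, named after its values were seen, was at 1.39 and 2.26 RPKM against 1.03 and 2.58 RPKM, which passed in limma voom (adjusted p = 0.00419) but not on the RPKM scale (adjusted p = 0.0561 from limma). The median difference of the subunits was 0.17, compared with -0.035 for all tested genes.

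Upstream of them, 16 genes of the IKK complex and its kinases were tested, and 0 were called between the numbers on the RPKM scale by limma, while limma voom called 2 higher. The highest levels were those of IRAK1, a kinase of the interleukin 1 receptor, at 27.1 to 34.8 RPKM, and TBK1, at 13.2 to 13.8 RPKM. Of the 16 tested receptors and adaptors that activate NF-kB, BIRC3, an E3 ligase and NF-kB target, was higher in number 2, with 5.70 and 7.80 RPKM in mimic NC and 4.14 and 6.85 RPKM in miR-217 mimic (0.50, standard error 0.089, adjusted p = 0.0494 from limma). The receptors LTBR (9.78 to 13.0 RPKM) and TNFRSF12A (7.16 to 11.2 RPKM) had the highest levels of this list and passed in limma voom alone (adjusted p = 0.0137 and 0.0150).

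Of the 13 tested IkB proteins and other feedback inhibitors, 0 were called higher in number 2 and 1 lower by limma, while limma voom called 2 of 16 higher and 1 lower. The lower gene in both was NFKBIZ, an atypical nuclear IkB protein that is known to help switch on IL6, at 15.0 and 4.21 RPKM with mimic NC and at 13.9 and 4.86 RPKM with the mimic. The libraries numbered 1 were far above those numbered 2, with a difference of -1.48 (standard error 0.097, adjusted p = 0.0205 from limma), in the same direction as NFKBIA. TNIP1, a partner of A20, at 30.4 to 37.5 RPKM, and IER3, at 25.0 to 29.6 RPKM, were the most abundant of this list and did not pass in either fit.

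Regulators of cytokine mRNA decay were read because of the AU-rich elements shown above. Of the 15 tested, limma called 2 lower in number 2 and 0 higher, while limma voom called 2 of 16 lower and 2 higher. ZFP36, which encodes tristetraprolin and binds the AU-rich nonamer, was at 2.57 and 0.515 RPKM with mimic NC and at 2.15 and 0.854 RPKM with miR-217 mimic, a difference of -1.0 (standard error 0.15, adjusted p = 0.0385 from limma). It reached the minimum of 1 RPKM through number 1 alone, so it passed the filter because it was higher there. Its p-value is therefore a description only. Its paralog ZFP36L1 was at 6.99 and 4.50 RPKM against 6.02 and 3.40 RPKM (-0.61, standard error 0.081, adjusted p = 0.0356 from limma). The median of the list was 0.048. Of the genes called higher in number 2 by limma voom, CXCL2 holds 5 copies of the nonamer, LIF 2, and IL6 and IL1A 0. NFKBIA, which was called lower, holds 0. The genes not called were CXCL1 with 3 copies, IL1B with 2, and CXCL8, CXCL3 and TNFAIP3 with 1 each. The part of mRNA decay in the results was not tested. HNRNPD, at 89.1 to 102 RPKM, and KHSRP, at 25.2 to 29.4 RPKM, were the most abundant of the list and did not pass.

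Of the 9 other cytokines and chemokines tested, 1 was higher in number 2 and 0 were lower, while limma voom called 5 of 20 higher and 0 lower. IL18, of the interleukin 1 family, was at 12.1 and 24.1 RPKM with mimic NC and at 13.0 and 26.4 RPKM with the mimic, a difference of 0.95 (standard error 0.067, adjusted p = 0.0209 from limma). IL32, the other abundant cytokine, at 18.9 to 20.1 RPKM, differed by -0.059 (adjusted p = 0.568 from limma). CCL5, named after its values were seen, was at 0.114 and 0.726 RPKM with mimic NC and at 0.322 and 1.09 RPKM with the mimic (adjusted p = 0.00702 from limma voom). Of the 21 other NF-kB targets tested, 2 were higher and 0 were lower, while limma voom called 6 of 25 higher and 2 lower. The adhesion molecule ICAM1 was at 5.10 and 9.58 RPKM against 6.05 and 10.7 RPKM (0.76, standard error 0.072, adjusted p = 0.0239 from limma). LCN2, a secreted iron-siderophore binding protein, was at 14.1 and 28.4 RPKM against 11.1 and 18.8 RPKM (0.84, standard error 0.089, adjusted p = 0.0278 from limma). The most abundant targets, C3 at 57.2 to 68.9 RPKM and PTGES at 55.8 to 80.1 RPKM, did not pass on this scale, while PTGES passed in limma voom (adjusted p = 0.0208).

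The receptors for the secreted products were read as well. Of 9 receptors and decoys 4 were tested, and 0 were called between the numbers on the RPKM scale by limma, while limma voom called 2 higher and 1 lower. LIFR, the receptor of LIF, was at 10.6 to 11.7 RPKM, and OSMR at 8.90 to 13.7 RPKM. Below the receptors, 8 genes of the JAK and STAT pathway were tested, with 0 called by limma on the RPKM scale and 2 of 9 higher and 2 lower by limma voom, and with PTPN11 at 33.8 to 41.2 RPKM as the most abundant. Of the 12 genes for processing and release of interleukin 1, 4 were tested and 0 were called between the numbers by limma or by limma voom, with CASP4 at 18.1 to 20.6 RPKM and CASP8 at 10.5 to 12.1 RPKM.

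**Figure D4:**
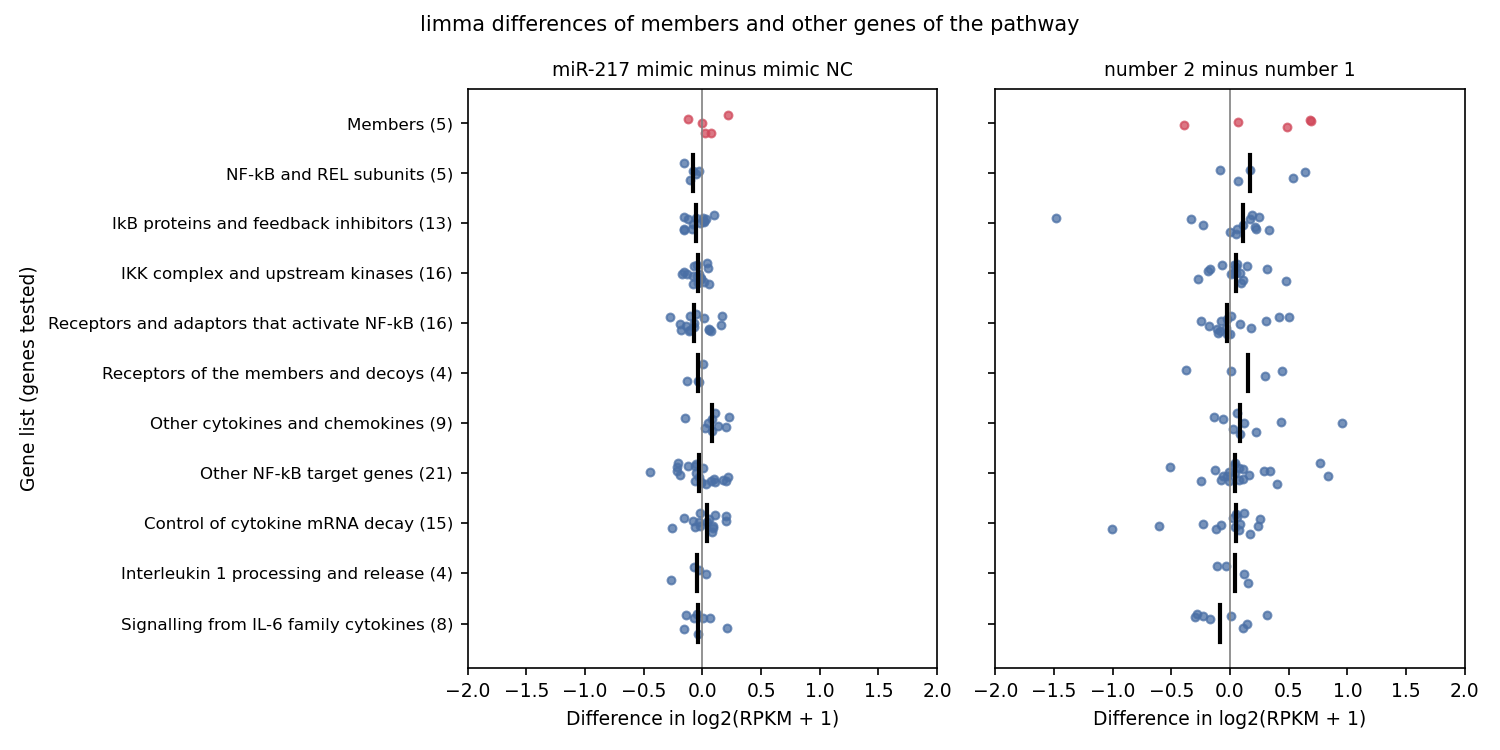
Each point is the difference of a gene in log2(RPKM + 1) from limma. The left side shows miR-217 mimic minus mimic NC and the right side number 2 minus number 1. The 5 tested genes of the 10 are in red and 10 lists of pathway genes in blue. Black bars are list medians, which run from -0.078 to 0.084 on the left and from -0.082 to 0.17 on the right, where NFKBIZ lies at -1.48 and IL18 at 0.95.

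The pattern of the 5 tested genes over the 4 libraries, taken as the median of their centred log2(RPKM + 1) values, was -0.24 and 0.10 in mimic NC and -0.17 and 0.31 in miR-217 mimic, so that miR-217 mimic replicate 2 was highest. The 5 other tested genes nearest to it were LINC00707, NOC3L, RP11-367J11.2, PUM3 and DCUN1D2, with a root mean square distance of 0.0085 to 0.014 over the 4 libraries. They rose from 2.19 to 3.05 RPKM in mimic NC and from 2.39 to 3.71 RPKM in miR-217 mimic for LINC00707, the nearest, and from 15.1 to 19.1 and from 15.9 to 22.1 RPKM for NOC3L. With 4 libraries, a near match is a description only.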

How the data were processed

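RNA was extracted with TRIzol from MDA-MB-231 and sequenced as stranded mRNA libraries. The authors deposited RPKM values, scaled by exon length and library total. The submitters' processing notes name hg38, Trimmomatic 0.36, featureCounts, Subread 1.5.1 and edgeR 3.12.1, without their roles. Whole reads were recovered from the deposited RPKM within 0.01 of a read for 100% of the nonzero values. Each column was matched to its sample by name.

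Values were tested on log2(RPKM + 1) with limma 3.58.1 (trend) in R 4.3.3, two-sided, over 13871 genes averaging 1 RPKM or more, with Benjamini-Hochberg adjustment. The mimic was compared without a replicate term, and the numbers with the group as a term. Counts of reads were tested with limma voom over genes with a mean of at least 10 reads. The fits were also run on simulated counts in which few genes differed between the numbers, unlike in these data. That run checked the code and not how the fits behave on these libraries. Named were all 10 genes and, of each list, the 2 most abundant genes and up to 2 of the largest rises and falls that passed and did not overlap, besides the 5 genes nearest in pattern. A gene that this rule names is not reported here. The members and lists were chosen with earlier results of these data known. Promoters and miR-217 came from RefSeq (GRCh38.p14) and 3'UTRs from GENCODE 29. Plots used matplotlib 3.10.9 in Python 3.11.15. The alternatives were another pseudocount, other filters, median centring, a replicate block, limma voom and leaving out each library.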

Additional observations from a re-analysis of the deposited data

How the results depend on the processing

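With miR-217 mimic, 0 of the 10 genes were called at an adjusted p under 0.05 in each setting run on all 4 libraries. Over all tested genes the count was also 0 in these settings, except for 1 of 19512 by limma voom with the replicate block. The 0 thus does not set the 10 genes apart. Their median log2 difference was 0.021 as reported, -0.053 at a mean RPKM of at least 5 (2 genes), 0.080 by limma voom with median-of-ratios factors, and 0.15 by limma voom with the replicate block. IL6 turned to 0.019 after median centring and 0.0078 with a pseudocount of 0.1, and CXCL2 turned to -0.065 by limma voom and to -0.056 with median-of-ratios factors. Leaving out each library in turn left the numbers unequal between the groups and gave medians of -0.056 to 0.30, with -0.38 to 0.36 for IL6, -0.41 to 0.56 for CXCL2, -0.056 to 0.50 for LIF, -0.032 to 0.074 for TNFAIP3 and -0.35 to 0.095 for NFKBIA.

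Libraries of the same number deviated together (correlation 0.68), but 2 pairs do not show that the numbers pair the samples. With the replicate block, LIF was under 0.05 before adjustment alone (adjusted p = 0.633 from limma and 0.528 from limma voom). The block left 0 genes of the family called, but raised the genes of the whole table at an unadjusted limma p under 0.05 from 165 to 1046.

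Between the numbers, 3 genes of the family were called as reported, 5 by limma voom under either scaling, 2 with a pseudocount of 0.1 (NFKBIA at adjusted p = 0.0507 from limma), 1 at a mean RPKM of at least 5, 0 without a filter, 1 without the group term, and 0 to 4 when each library was left out. The median of 0.49 became 0.63 by limma voom, 0.68 with median-of-ratios factors, -0.16 at a mean RPKM of at least 5 and 0.20 without a filter, and ran from 0.35 to 0.63 over the libraries left out. These medians cover different genes, and genes that passed a filter through number 2 alone raise them. The counts of called genes differed with how many genes each fit called at all. As reported, 1163 of 13871 genes were called, compared with 1462 of 6953 at a mean RPKM of at least 5. Without a filter only 3 of 32955 genes were called, so the 0 there does not set these genes apart. A fit without 1 library leaves a single library in 1 number and cannot tell whether the calls hold, so its count is not given. Planned quasi-likelihood count tests were not run, and limma voom on the recovered reads, chosen after seeing the data, stands in their place. Genes with few reads, such as IL1A, CXCL1 and CXCL3, are limited by depth.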

Other observations

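The chemokine genes lie in 1 cluster on chromosome 4, and the other genes of the cluster were read as well (all named after their values were seen). CXCL5, which lies between CXCL1 and CXCL3, was at 0.204 and 0.333 RPKM in mimic NC and at 0.384 and 0.531 RPKM in miR-217 mimic. CXCL6 was listed at 0 in 3 libraries and at 0.0561 RPKM in miR-217 mimic replicate 2. PF4 and PPBP encode chemokines of platelets. PF4 stayed at or below 0.210 RPKM. PPBP was at 0.0483 and 0 RPKM in mimic NC and at 0.262 and 0.257 RPKM in miR-217 mimic. MTHFD2L, a mitochondrial folate enzyme gene beside CXCL2, was at 1.29 and 1.35 RPKM in mimic NC and at 1.11 and 1.15 RPKM in miR-217 mimic. Between the numbers it differed by 0.032 on the log2(RPKM + 1) scale (adjusted p = 0.822 from limma), compared with 0.69 for CXCL2. Both mimic libraries thus lay above both control libraries for CXCL5 and PPBP, and below both for MTHFD2L. Of the genes with a mean of at least 10 reads, 24.1% had no overlap between the groups, in either direction. Beside the interleukin 1 genes on chromosome 2, CKAP2L, a mitotic spindle gene, was at 12.0 to 15.4 RPKM and differed by 0.19 (adjusted p = 0.149 from limma), while IL37 was listed at 0 in 3 libraries and at 0.219 RPKM in miR-217 mimic replicate 2.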
